A study of Mus musculus with 10 samples.

Results

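The genes described here are 9 fibroblast growth factor (FGF) genes, Fgf3, Fgf4, Fgf5, Fgf8, Fgf10, Fgf13, Fgf15, Fgf17 and Fgf18, found by symbol among the 21937 genes of a deposited expression table of differentiating mouse embryonic stem cells. All 9 were in the table and were followed through all 10 of its libraries. The cells carried a C57BL/6 background and were grown in either of 2 cultures. In SFEB culture, serum-free floating aggregates that lead toward neuroectoderm, wild-type cells and Tet3 knockout cells, the latter without or with Dkk, were sampled on days 6 and 10. Under fetal bovine serum (FBS), a condition not permissive for neural fate, control cells and Tet3-overexpressing cells were sampled on days 4 and 7. The Tet3 protein is a dioxygenase that acts on methylated cytosines and converts them to oxidised forms. The knockout cells came from mice with floxed Tet3 alleles, from which transient Cre expression removed the floxed exon. Dkk proteins block Wnt receptors from outside the cell, and which Dkk was used and at what dose is not given in the sources used here, nor are the number of lines or clones and the way Tet3 was overexpressed.

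FGFs are secreted proteins that bind tyrosine kinase receptors on neighbouring cells, with heparan sulphate as a cofactor. The receptors signal through the adaptor Frs2 and the Ras-ERK pathway, which switches on transcription factors of the Etv group and feedback inhibitors such as the Sprouty and Dusp6 proteins. In the early embryo Fgf4 drives pluripotent cells toward differentiation, Fgf5 marks the epiblast after implantation, and Fgf8 acts in the primitive streak and later at the border of midbrain and hindbrain. Fgf13 is an exception among the 9: its protein belongs to a group that stays inside the cell and binds sodium channels, so it is a ligand by family name and not by action.

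Fgf3, Fgf4 and Fgf15 lie next to each other on chromosome 7, in the order Ano1, Fgf3, Fgf4, Fgf15, with no other protein-coding gene between them in the RefSeq annotation of GRCm38.p6. Below are the 250 bases before the annotated start of Fgf3 and Fgf4, as neighbours whose levels moved in opposite directions, and of Fgf5, the member with the highest level in Tet3-overexpressing cells on day 7. They run 5′ to 3′ on the plus strand, and capitals mark CG dinucleotides, the sites at which Tet enzymes mostly act. The coordinates are those of RefSeq on GRCm38.p6, not of mm9, the build named for the expression table.
Fgf3, chr7:144838362-144838611: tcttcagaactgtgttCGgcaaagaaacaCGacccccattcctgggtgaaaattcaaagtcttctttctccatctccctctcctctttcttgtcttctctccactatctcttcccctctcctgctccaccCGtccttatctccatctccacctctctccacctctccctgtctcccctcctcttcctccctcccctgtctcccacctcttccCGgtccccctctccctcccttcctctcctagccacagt
Fgf4, chr7:144861136-144861385: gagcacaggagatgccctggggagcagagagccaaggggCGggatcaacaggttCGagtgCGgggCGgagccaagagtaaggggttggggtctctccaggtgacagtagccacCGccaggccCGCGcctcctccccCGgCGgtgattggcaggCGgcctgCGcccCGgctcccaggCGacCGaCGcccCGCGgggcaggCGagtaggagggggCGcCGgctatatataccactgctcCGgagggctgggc
Fgf5, chr5:98253934-98254183: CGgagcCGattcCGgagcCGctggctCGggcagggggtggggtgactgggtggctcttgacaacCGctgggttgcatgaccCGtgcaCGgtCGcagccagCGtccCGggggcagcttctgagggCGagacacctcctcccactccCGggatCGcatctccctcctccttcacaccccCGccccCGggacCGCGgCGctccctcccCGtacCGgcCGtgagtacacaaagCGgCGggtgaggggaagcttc

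The Fgf3 sequence held 4 CG dinucleotides at a G+C content of 55.2%, against 21 at 71.2% for Fgf4 and 24 at 70.8% for Fgf5. Across 32851 promoter windows of the same length the median was 6 CG dinucleotides at 52.4% G+C, with quartiles of 2 and 16. At least as many CG dinucleotides as in the Fgf3, Fgf4 and Fgf5 windows were held by 62.2%, 16.3% and 12% of all windows. The table of promoters had entries for 6 of the 9 members, with 9 starts in all. Those of Fgf18 and Fgf10 held 37 and 8 CG dinucleotides, and the 4 starts of Fgf13 held 2, 6, 31 and 33. Of the short motifs searched on both strands, GGGCGG was in the Fgf4 and Fgf5 windows (and in 32.7% of all windows), TATATA was in the Fgf4 window (5.25% of all) and ATTGG was in the Fgf4 window (33.8% of all). GGGCGG was also in the Fgf10 and Fgf18 windows and in 2 of the 4 of Fgf13, and ATTGG in 1 of the 4 of Fgf13. The Fgf3 window held none of these, nor TATAAA (12.4% of all), and the motifs CTTTGAT (3.21% of all) and ATGCAAAT (1.60% of all) were in none of the 9 windows searched, which belong to 6 members. The motifs can overlap, and a match is a description of the letters only. DNA methylation was not part of the table.

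Levels are RPKM, reads scaled to transcript length and library total. Depth was estimated from the steps between low values, at 10200000 to 43200000 reads per library, and for several libraries about double that total came close to an equally good match. Each condition and day had 1 library, so differences between 2 libraries have no replicate error. The 95% intervals given in brackets are Clopper-Pearson intervals of the log2 ratio of estimated reads, carry no pseudocount, and cover counting error only, for reads that are not known to be separate molecules. Differences are on the log2(RPKM + 0.5) scale, which understates changes of low genes, and a difference is counted where it reached 2-fold on that scale and at least 1 library of the culture reached 1 RPKM. The FBS libraries were labelled as cells of embryonic stem cell type, and their pluripotency gene Pou5f1 stood at 1118, 1186, 207 and 880 RPKM in control day 4, Tet3-overexpressing day 4, control day 7 and Tet3-overexpressing day 7. The SFEB libraries bore the same label, but Pou5f1 was at 3.06 to 58.1 RPKM and 6 neural progenitor genes summed to 197 to 260 RPKM, against 29.6 to 123 in FBS. Tet3 stood at 12.5 and 14.1 RPKM in the overexpressing cells, above 0.96 and 5.87 in their controls. In the knockout libraries Tet3 was at 6.59 to 14.3 RPKM against 8.11 and 10.2 in wild type, a value over the whole gene that cannot check the loss of 1 exon.

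The members differed first by culture. Fgf3, Fgf4, Fgf5, Fgf8, Fgf10 and Fgf17 had their highest levels in FBS, whereas Fgf13, Fgf15 and Fgf18 had theirs in SFEB. Fgf4 stood at 7.61 to 39.8 RPKM in the FBS libraries and at 0.18 to 0.71 RPKM in all 6 SFEB libraries. Fgf18 was the reverse, at 1.62 to 4.28 RPKM in SFEB and 0.15 to 0.37 RPKM in FBS, and Fgf13 ranged from 5.35 to 17.4 RPKM in SFEB against 1.19 to 2.79 RPKM in FBS. For these 3 genes no SFEB library overlapped an FBS library, but the share of all genes of which this holds was not counted. The cultures also differed in days and cells, so the culture cannot be told apart from these. RPKM values summed over the 9 members came to 120, 75.4, 48.4 and 116 in the FBS libraries, in the order given for Pou5f1. They came to 61.5, 54.4 and 65.8 on day 6 and to 36.5, 27.0 and 35.1 on day 10 in wild type, knockout and knockout with Dkk.

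The make-up of that sum shifted with day and condition. Fgf8 supplied 46.2% of it in control cells on day 4, ahead of Fgf4 at 18.9% and Fgf5 at 18.8%. In Tet3-overexpressing cells on day 4 Fgf4 supplied 52.8%. In control cells on day 7 the leading member was Fgf3, at 30.2%, while in the overexpressing cells of that day Fgf5 and Fgf4 led with 28.3% and 27.2%. In SFEB on day 6, Fgf15 supplied 31.1% to 35.9% and Fgf8 25.5% to 33.6% in the 3 conditions. On day 10 Fgf13 led in wild type and knockout with 47.6% and 46.2%, and Fgf15 led in knockout with Dkk with 46.8%.

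**Figure D1:**
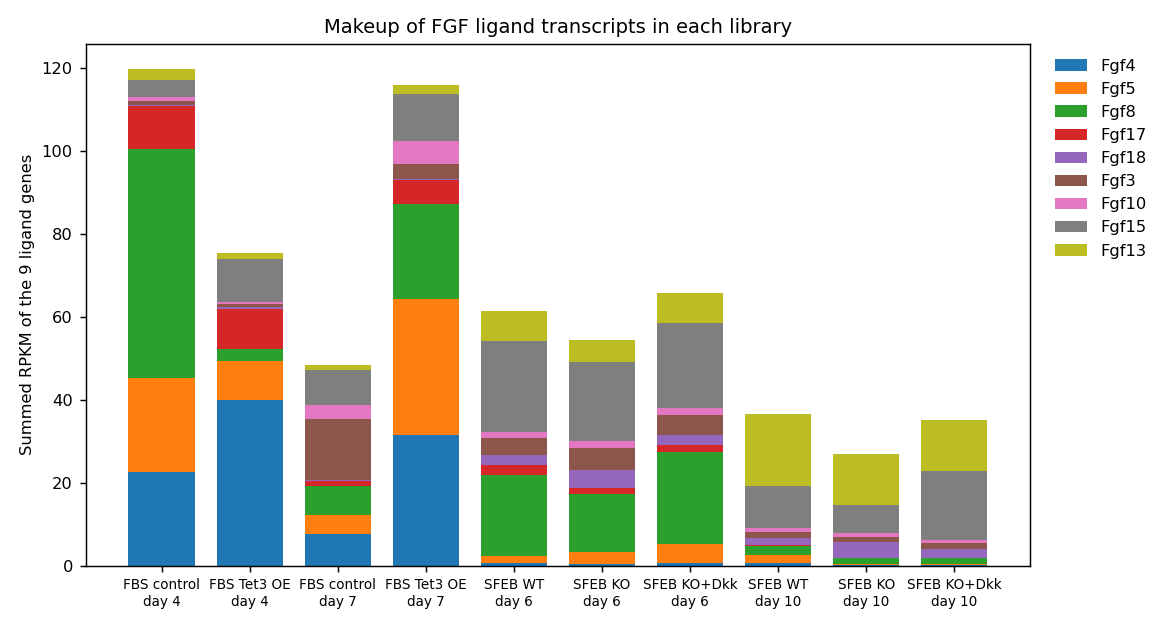
Summed level of the 9 FGF genes (RPKM, vertical axis) in each of the 10 libraries (horizontal axis), with 1 coloured segment per gene, and with WT for wild type, KO for knockout and OE for overexpressing. The FBS bars reach from 48.4 to 120 RPKM, Fgf8 makes up 46.2% of the control bar on day 4, Fgf4 52.8% of the Tet3-overexpressing bar on day 4, and Fgf13 47.6% of the wild-type SFEB bar on day 10.

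Within the order of the 10 libraries, many neighbours could not be separated. Ranked by level, a gene has 9 pairs of neighbouring libraries, and counting intervals separated 5 of them for Fgf5, 4 each for Fgf4, Fgf8 and Fgf13, 3 each for Fgf10, Fgf15 and Fgf17, 2 for Fgf3 and 1 for Fgf18. Fgf4 was ordered most fully at the top, with each FBS library separated from the next: 39.8 RPKM in Tet3-overexpressing day 4, 31.5 in overexpressing day 7, 22.7 in control day 4 and 7.61 in control day 7. Fgf8 was highest in control FBS day 4 at 55.3 RPKM. It was followed by 4 libraries that ran from 22.8 to 13.9 RPKM, among which only the step from wild type to knockout on SFEB day 6 was separated. For Fgf18 the single separated step lay between the lowest SFEB library at 1.62 RPKM and the highest FBS library at 0.37 RPKM.

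**Figure D2:**
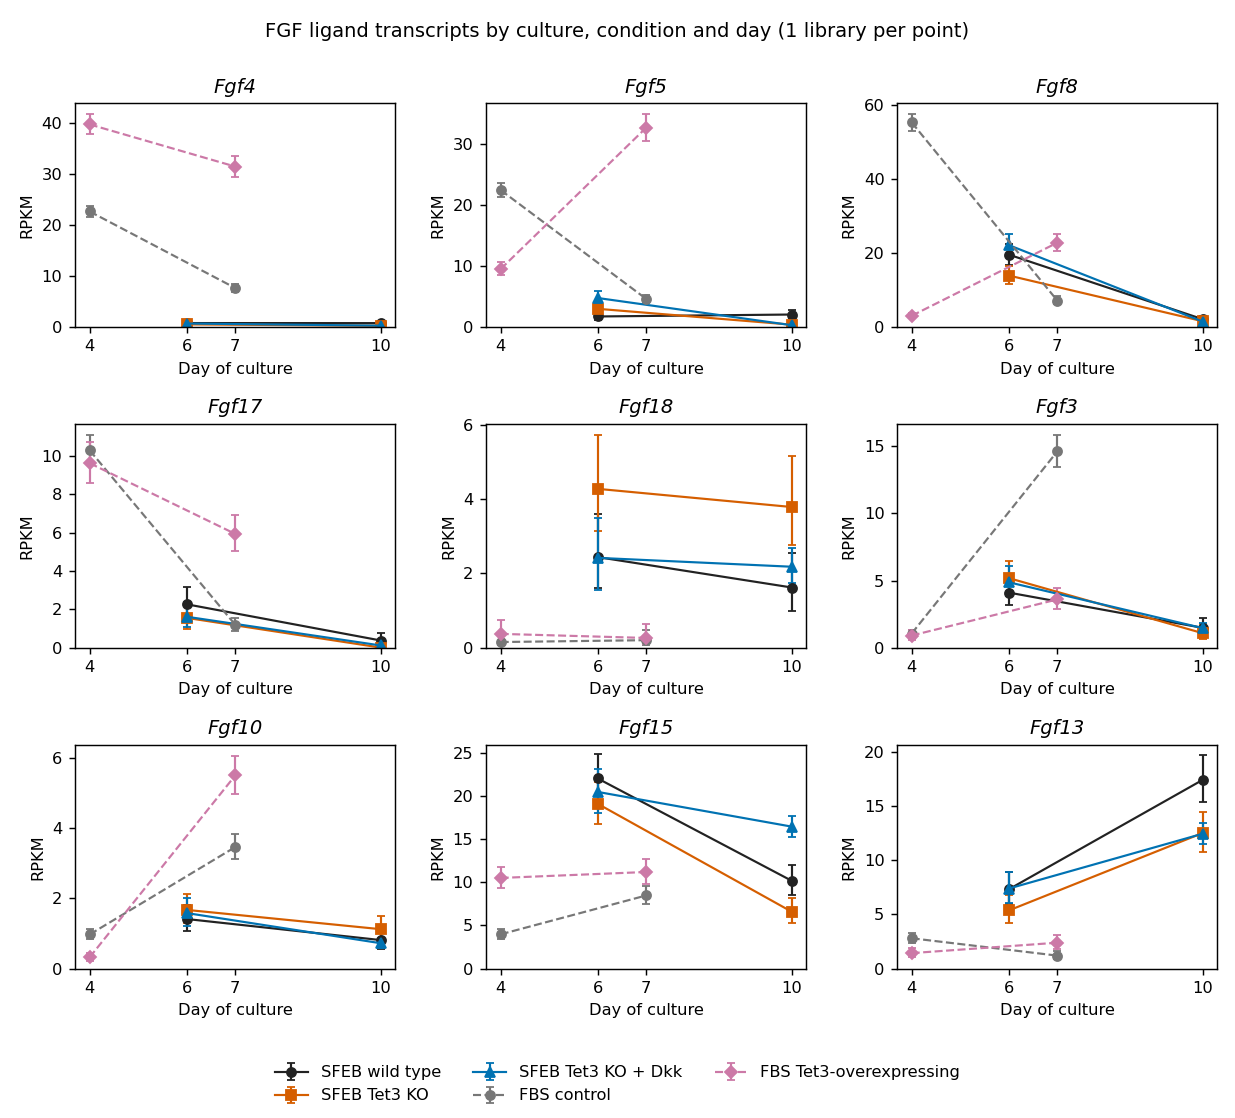
Level (RPKM) of each of the 9 FGF genes by day of culture, with 1 point per library, lines joining the 2 days of a condition and bars giving 95% exact Poisson counting intervals of the estimated reads. Fgf8 goes from 55.3 to 7.07 RPKM in FBS control cells and from 2.95 to 22.8 RPKM in Tet3-overexpressing cells, while Fgf13 is higher on day 10 than on day 6 in all 3 SFEB conditions.

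Whether Tet3 overexpression in FBS went with other ligand levels was asked by setting the overexpressing cells beside their controls on each day. Fgf4 was higher and Fgf3 was lower in the overexpressing cells on day 7, and Fgf5 and Fgf8 lay on opposite sides of the control on the 2 days. On day 4, 1 of 8 members compared was at least 2-fold higher (Fgf15) and 2 were lower (Fgf5 and Fgf8), where 5.19% of the 12387 genes compared passed 2-fold in either direction, 1.72% higher and 3.47% lower. On day 7, 4 members were higher (Fgf4, Fgf5, Fgf8 and Fgf17) and 1 was lower (Fgf3), against 18.1% of all genes in either direction, 6.96% higher and 11.1% lower. Fgf18 was under 1 RPKM in all 4 FBS libraries and was not compared. The median difference of the 8 members was -0.46 on day 4 and 1.19 on day 7, beside -0.07 and -0.03 over all genes.

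Fgf4, the ligand made by pluripotent cells, stood at 22.7 RPKM in control and 39.8 RPKM in overexpressing cells on day 4, then 7.61 and 31.5 RPKM on day 7. It was thus the higher of the pair on both days, by a log2 difference of 0.80 [0.71 to 0.91] on day 4, short of 2-fold, and of 1.98 [1.87 to 2.23] on day 7. In bulk RNA, fewer cells of a type and less RNA per cell cannot be told apart. Beside it, 7 pluripotency genes summed to 1234 and 1376 RPKM on day 4 and to 255 and 995 RPKM on day 7. Most of each sum was Pou5f1, at 1118 and 1186 RPKM on day 4 and 207 and 880 RPKM on day 7. On day 7, 4 of the 7 genes were past 2-fold higher in the overexpressing cells and 1 was lower. Of all genes, 6.96% were higher and 11.1% lower. Their part in the Fgf4 difference was not tested.

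Fgf5, the epiblast ligand, was at 22.5 RPKM in control and 9.49 RPKM in overexpressing cells on day 4, then 4.56 and 32.8 RPKM on day 7. The overexpressing library was the lower one on day 4, at a log2 difference of -1.20 [-1.42 to -1.07], and the higher one on day 7, at 2.72 [2.62 to 3.08].

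Fgf8, which acts in the primitive streak, gave the widest pair of all members: 55.3 RPKM in control and 2.95 RPKM in overexpressing cells on day 4, then 7.07 and 22.8 RPKM on day 7. The log2 difference was -4.02 [-4.61 to -3.86] on day 4 and 1.62 [1.42 to 1.95] on day 7. Fgf17, a close relative of Fgf8, was at 10.3 and 9.62 RPKM on day 4, a pair that counting error did not separate, and at 1.19 and 5.93 RPKM on day 7, a log2 difference of 1.93 [1.85 to 2.83]. The 2 relatives therefore differed on day 4 and had the same direction on day 7. Genes of the primitive streak and presomitic mesoderm moved beside Fgf8: 9 of them summed to 90.2 and 5.94 RPKM on day 4 and to 12.6 and 47.7 RPKM on day 7. Of the 5 compared, 4 were at least 2-fold lower with overexpression on day 4, against 3.47% of all genes. On day 7, 4 were at least 2-fold higher, against 6.96% of all genes. The streak gene T stood at 69.2 and 1.44 RPKM on day 4, then 4.72 and 12.5 RPKM on day 7, and Eomes at 12.7 and 2.95, then 5.55 and 23.5 RPKM. Their part in the Fgf8 and Fgf5 differences was not tested.

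Fgf3 and Fgf10 are ligands of later organ rudiments, Fgf3 of the inner ear and hindbrain and Fgf10 of lung and limb buds. Fgf3 was near 1 RPKM on day 4, at 1.05 in control and 0.90 in overexpressing cells, and at 14.6 and 3.59 RPKM on day 7. The day 7 log2 difference was -1.89 [-2.36 to -1.70], the only decrease of 2-fold among the members on that day. Sums of 6 cardiac genes (134 and 12.6 RPKM) and of 6 visceral endoderm genes (164 and 26.5 RPKM) were also lower in the overexpressing cells on day 7. Of those compared, 4 of 4 cardiac and 3 of 6 visceral endoderm genes were at least 2-fold lower, against 11.1% of all genes. Most of the second sum was Ttr (76.1 and 3.23 RPKM) and Apoa1 (69.4 and 8.88 RPKM), while Cubn was at 3.52 and 4.10 RPKM. The part of these genes in the Fgf3 difference was not tested. Fgf10 stood at 0.97 and 0.32 RPKM on day 4, then 3.46 and 5.50 RPKM on day 7. The log2 differences of Fgf10, -0.84 and 0.60, stayed under 2-fold, although on day 4 the ratio of reads without the pseudocount was past 2-fold [-2.24 to -1.05].

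Fgf15, the mouse counterpart of human FGF19, was at 3.97 RPKM in control and 10.5 RPKM in overexpressing cells on day 4, then 8.48 and 11.2 RPKM on day 7. Both days had the overexpressing library higher, by a log2 difference of 1.30 [1.14 to 1.67] and 0.38 [0.14 to 0.65]. Fgf13, the intracellular channel-binding member, was low throughout, at 2.79 and 1.42 RPKM on day 4 and 1.19 and 2.38 RPKM on day 7, with differences of -0.78 and 0.77.

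**Figure D3:**
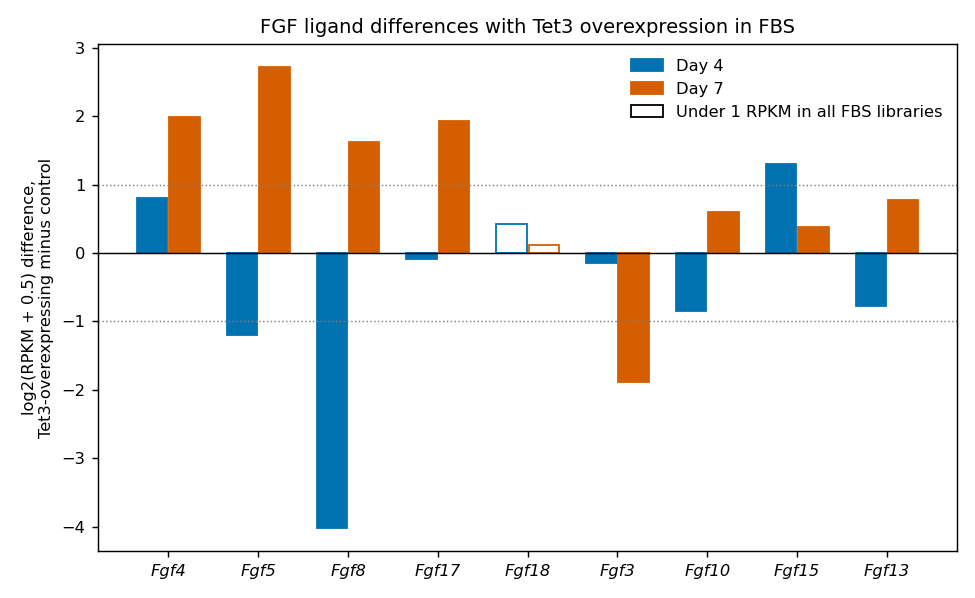
Difference between Tet3-overexpressing and control FBS libraries for each of the 9 FGF genes (log2(RPKM + 0.5) units, vertical axis), with 1 bar per day, open bars for the gene under 1 RPKM in all FBS libraries, and dotted lines at 2-fold. Fgf8 reaches -4.02 on day 4 and 1.62 on day 7, Fgf5 changes side from -1.20 to 2.72, and Fgf4 is positive on both days.

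An additive model over all 10 libraries tested the effect of overexpression common to both days, with limma on 13757 genes and Benjamini-Hochberg adjustment. No member passed an adjusted p of 0.05, where 13 genes (0.0945%) did; 3 of the 9 members had an unadjusted p under 0.05, as had 19.6% of all genes. These were Fgf4 (1.39, SE 0.34, limma adjusted p = 0.119), Fgf15 (0.84, SE 0.32, adjusted p = 0.225) and Fgf3 (-1.02, SE 0.41, adjusted p = 0.245). Fgf5 and Fgf8, whose days had opposite signs, gave 0.76 (SE 0.98, limma adjusted p = 0.711) and -1.20 (SE 1.10, adjusted p = 0.583). Leaving out a day 4 FBS library, after which the model rests on the day 7 pair with its spread borrowed from the other libraries, brought 3 or 4 members past the threshold, in fits that called 769 genes (5.61%) without control day 4 and 919 (6.72%) without overexpressing day 4. The members were Fgf3, Fgf4 and Fgf17 at limma adjusted p of 0.0457, 0.0459 and 0.0409 without control day 4, and Fgf3, Fgf4, Fgf8 and Fgf17 at 0.0391, 0.0408, 0.0459 and 0.0371 without overexpressing day 4. For Fgf8 this turned the sign, since the estimate without a day 4 library is the day 7 difference of 1.62. The difference between the 2 days was tested by adding an interaction term, with the spread taken from the SFEB libraries alone. It was 5.63 (SE 0.45, limma adjusted p = 0.128) for Fgf8 and 3.92 (SE 1.44, adjusted p = 0.345) for Fgf5. No gene of 13757 passed (0%), and 6 of 9 members had an unadjusted p under 0.05, beside 13.7% of all genes. This test was added after the values were seen.

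Over time in FBS culture Fgf5 and Fgf8 moved in opposite directions in the 2 groups, and 5 of the other 6 members compared had the same sign in both. In control cells from day 4 to day 7, 3 of 8 members compared were higher by 2-fold or more (Fgf3, Fgf10 and Fgf15) and 4 were lower (Fgf4, Fgf5, Fgf8 and Fgf17), where 20.2% of all genes passed in either direction, 11.5% higher and 8.71% lower. In Tet3-overexpressing cells 4 were higher (Fgf3, Fgf5, Fgf8 and Fgf10) and none was lower, where 4.69% of all genes passed in either direction, 3.49% higher and 1.2% lower. The members' median difference was -1.24 in control and 1.07 in overexpressing cells, beside -0.01 and 0.03 over all genes. Each of these differences uses libraries that also enter the comparison by day above, so they are the same 4 values arranged by group.

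Fgf3 and Fgf10 were higher on day 7 in both groups, Fgf3 by 3.29 [3.42 to 4.18] in control and 1.55 [1.39 to 2.66] in overexpressing cells, and Fgf10 by 1.43 [1.58 to 2.11] and 2.87 [3.58 to 4.72]. Some of these intervals lie above the difference itself because the read ratio has no pseudocount. Fgf4 and Fgf17 were lower by day 7 in control cells, with differences of -1.51 [-1.74 to -1.41] and -2.67 [-3.58 to -2.70], and in overexpressing cells they stood at -0.33 and -0.65. Fgf5 and Fgf8 went opposite ways: -2.18 and -2.88 in control, 1.74 and 2.75 in overexpressing cells. Fgf15 differed by 1.0 [0.83 to 1.36] in control and 0.09 [-0.17 to 0.34] in overexpressing cells. Over the same days 5 of 7 pluripotency genes were at least 2-fold lower in control cells, against 8.71% of all genes. In overexpressing cells 1 of 7 was lower, against 1.2% of all genes. Whether this bears on the ligands was not tested.

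In SFEB culture the comparison of day 10 with day 6 followed the ligands as the aggregates matured. Fgf8, Fgf3 and Fgf17 were lower on day 10 in wild type, knockout and knockout with Dkk, and Fgf13 was higher in all 3. Of the 8 members compared, 1 was at least 2-fold higher and 4 were lower in wild type, where 24.9% of 12912 genes passed in either direction, 16.9% higher and 7.98% lower. In the knockout 1 was higher and 5 were lower, against 21.1% and 8.01% of all genes (29.1% in either direction). With Dkk none was higher and 4 were lower, against 17.6% and 6.81% (24.4% in either direction). The members' medians were -0.81, -1.66 and -1.12, beside 0.09, 0.16 and 0.14 over all genes. Fgf4, under 1 RPKM in every SFEB library, was not compared.

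Fgf8 was at 19.5, 13.9 and 22.1 RPKM on day 6, then 2.0, 1.46 and 1.35 RPKM on day 10 in wild type, knockout and knockout with Dkk. All 3 day 10 libraries lay below all 3 of day 6, with log2 differences of -3.0 [-4.03 to -2.65], -2.87 [-4.13 to -2.48] and -3.61 [-4.52 to -3.58]. Fgf17 followed from 2.26, 1.55 and 1.61 RPKM to 0.37, 0 and 0.11 RPKM, with differences of -1.67 and -1.79 in wild type and with Dkk. In the knockout, where Fgf17 was listed at 0 on day 10, the day 6 value was 8.44 times a floor of 3 reads in that library. This ratio leaves out the counting error of the day 6 value. Fgf3 stood at 4.10, 5.18 and 4.87 RPKM on day 6, then 1.47, 1.07 and 1.45 RPKM on day 10, at differences of -1.22, -1.86 and -1.46. As for Fgf8, the days did not overlap, but the share of all genes of which this holds was not counted. Genes of the midbrain-hindbrain border, where Fgf8 and Fgf17 act, summed to 115, 21.8 and 112 RPKM on day 6 and to 26.3, 36.9 and 19.2 RPKM on day 10. In the knockout that sum was thus higher on day 10 while Fgf8 was lower.

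Fgf13 stood at 7.30, 5.35 and 7.37 RPKM on day 6, then 17.4, 12.5 and 12.4 RPKM on day 10. Every day 10 library lay above every day 6 library, by 1.2 [0.92 to 1.60], 1.15 [0.82 to 1.63] and 0.72 [0.45 to 1.06] on the log2 scale, the last of them under 2-fold. The share of all genes whose days separate in this way was not counted. Fgf15 went from 22.1, 19.1 and 20.5 RPKM to 10.2, 6.58 and 16.5 RPKM, a difference past 2-fold in wild type (-1.08) and knockout (-1.47) but not with Dkk (-0.31 [-0.52 to -0.10]). Fgf5 was at 1.68 and 2.0 RPKM in wild type, and went from 2.94 to 0.33 RPKM in the knockout and from 4.72 to 0.24 RPKM with Dkk. The corresponding differences were 0.20 [-0.53 to 1.02], -2.05 [-4.56 to -1.81] and -2.82 [-5.21 to -3.44]. Fgf10 was between 0.72 and 1.67 RPKM in the 6 libraries and Fgf18 between 1.62 and 4.28 RPKM, with no change of 2-fold over time.

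Knockout and wild type were compared on each day for the effect of losing Tet3. On day 6 none of 8 members compared differed 2-fold between knockout and wild type, where 7.06% of all genes did, 4.88% higher and 2.18% lower. On day 10, 1 was higher (Fgf18) and 1 was lower (Fgf5), against 10.2% of all genes in either direction, 8.26% higher and 1.96% lower. Fgf18, a relative of Fgf8 and Fgf17, was at 2.44 RPKM in wild type and 4.28 RPKM in the knockout on day 6, then 1.62 and 3.79 RPKM on day 10. The knockout library was the higher on both days, by 0.70 [0.08 to 1.56] and 1.02 [0.42 to 2.09]. The day 10 difference lay just past 2-fold and fell under it with a pseudocount of 1 or with values rescaled to a common total. Fgf5 was higher in the knockout on day 6 by 0.66 [0.07 to 1.53], under 2-fold, and lower on day 10 by -1.59 [-4.03 to -1.23], at levels of 2.0 and 0.33 RPKM.

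Fgf8 was at 19.5 and 13.9 RPKM on day 6 in wild type and knockout, a log2 difference of -0.48 [-0.82 to -0.16]. Over the same pair 6 of 7 midbrain-hindbrain border genes were at least 2-fold lower in the knockout, against 2.18% of all genes. Of 8 streak and presomitic genes compared, 6 were at least 2-fold higher, against 4.88% of all genes. The streak and presomitic list summed to 5.35 and 49.1 RPKM, most of it T at 3.64 and 37.2 RPKM. All 6 of 6 somite genes were also at least 2-fold higher (summing to 1.35 and 238 RPKM). Fgf8 thus differed by less than 2-fold between libraries in which most border, streak and presomitic genes compared differed by more. The part of these cell types in its level was not tested. Fgf15 was at 22.1 and 19.1 RPKM on day 6, then 10.2 and 6.58 RPKM on day 10, lower in the knockout by 0.20 and 0.59 on the log2 scale. Fgf13 was lower by 0.42 and 0.46. Fgf3 and Fgf10 were not separated by counting error on either day. Fgf17 was at 0.37 RPKM in wild type and listed at 0 in the knockout on day 10. Exact Poisson counting intervals of each value alone, 0.13 to 0.77 and 0 to 0.23 RPKM, overlapped. Such an overlap is not the ratio interval used for the other pairs and does not show that this pair cannot be separated. The wild-type value was 2.01 times a floor of 3 reads in the knockout library. That ratio leaves out the counting error of the wild-type value, which rested on about 6.27 estimated reads.

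Dkk added to the knockout was set against the knockout alone, to follow the ligands when Wnt signalling is inhibited. On day 6 none of 8 members differed 2-fold, against 5.75% of all genes, 2.18% higher and 3.57% lower. On day 10 only Fgf15 did, being higher, against 6.93% of all genes in either direction, 1.7% higher and 5.23% lower. Fgf15 stood at 6.58 RPKM in the knockout and 16.5 RPKM with Dkk on day 10, a log2 difference of 1.26 [0.99 to 1.66], and at 19.1 and 20.5 RPKM on day 6, a pair not separated by counting error. Fgf18 was lower with Dkk on both days, from 4.28 to 2.42 RPKM and from 3.79 to 2.18 RPKM, by -0.71 [-1.60 to -0.13] and -0.68 [-1.37 to -0.25]. Fgf8 was higher with Dkk on day 6, at 22.1 against 13.9 RPKM (0.65 [0.35 to 0.99]), and not separated on day 10. On day 6 the 6 border genes that were lower in the knockout were at least 2-fold higher with Dkk, and all 6 somite genes were lower.

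Against wild type, the knockout with Dkk differed 2-fold in Fgf5 alone among the members, higher on day 6 and lower on day 10, where 2.56% and 6.27% of all genes passed in either direction. On day 6 these were 1.58% higher and 0.976% lower, and on day 10 they were 4.59% higher and 1.68% lower. The Fgf5 pairs were 1.68 and 4.72 RPKM on day 6 (1.26 [0.82 to 2.16]) and 2.0 and 0.24 RPKM on day 10 (-1.76 [-4.05 to -2.11]). Fgf15 was higher on day 10 by 0.67 [0.43 to 0.97]. These 3 comparisons share libraries: wild type serves 2 of them, as do the knockout and the knockout with Dkk.

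In the additive limma model no member passed an adjusted p of 0.05 for knockout against wild type, where 29 genes (0.211%) did, for Dkk against knockout, where 18 (0.131%) did, or for knockout with Dkk against wild type, where 1 (0.00727%) did. At an unadjusted p under 0.05 there were 1, 1 and 0 of 9 members, beside 14.7%, 5.68% and 11.8% of all genes. The member was Fgf18 both times, at 0.86 (SE 0.26, limma adjusted p = 0.212) for the knockout and -0.69 (SE 0.26, adjusted p = 0.803) for Dkk.

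The rest of the pathway was followed in 4 lists that held 50 further genes. In additive limma tests none of the 40 tested passed an adjusted p of 0.05 in any of the 4 contrasts. Of 13 other ligands 2 were compared in FBS and 4 in SFEB, the rest being under 1 RPKM. Fgf1, a ligand without a signal peptide, was at 0.30 and 3.77 RPKM in control and Tet3-overexpressing cells on day 4, then 0.09 and 1.33 RPKM on day 7, higher by 2.42 and 1.63 (limma 2.02, SE 0.33, adjusted p = 0.0799). All 4 other ligands compared in SFEB, Fgf9, Fgf11, Fgf12 and Fgf14, were at least 2-fold higher on day 10 than on day 6 in wild type and knockout, and 2 (Fgf9 and Fgf11) with Dkk. Of all genes, 16.9%, 21.1% and 17.6% were higher in wild type, knockout and knockout with Dkk. Fgf11 and Fgf12, which like Fgf13 stay inside the cell, stood in wild type at 0.29 and 0.54 RPKM on day 6 but at 4.02 and 3.64 RPKM on day 10.

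Among 7 receptors and coreceptors, Fgfr1 was the most abundant in FBS, at 36.6 to 52.7 RPKM, with under 2-fold between the groups on either day. Of the 6 compared, 5 were at least 2-fold higher on day 7 than on day 4 in control cells, against 11.5% of all genes. In overexpressing cells none was, against 3.49% of all genes. With overexpression 4 were lower on day 7 (Fgfr2, Fgfr3, Fgfrl1 and Klb), against 11.1% of all genes. Fgfr3 was at 11.4 RPKM in control and 1.26 RPKM in overexpressing cells on day 7, a log2 difference of -2.76 [-3.60 to -2.80], and Fgfr2 at 9.21 and 2.31 RPKM (-1.79 [-2.33 to -1.67]). On day 7, then, 4 ligands were higher and 4 genes of the receptor and coreceptor list were lower in the same library, with Fgfr1 under 2-fold. In SFEB Fgfr3 was higher in the knockout on day 10, at 33.2 against 15.0 RPKM (1.12 [0.98 to 1.31]), and no other receptor passed 2-fold on that day. Among 13 adaptors, carriers and cofactors only Cnpy1, a regulator of FGF receptor signalling at the midbrain-hindbrain border, differed 2-fold on both days of a comparison: it stood at 1.42 and 0.08 RPKM in wild type and knockout on day 6, then 1.5 and 0.48 RPKM on day 10 (limma -1.38, SE 0.31, adjusted p = 0.127). Gab1, a docking adaptor, was at 52.7 and 90.3 RPKM in control and overexpressing cells on day 4, then 27.7 and 75.9 RPKM on day 7 (limma 1.10, SE 0.22, adjusted p = 0.0999).

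Genes that FGF and ERK signalling are known to induce were followed from day 6 to day 10 in SFEB. Of 17 listed, 16 were compared (Spry3 was listed at 0 throughout). From day 6 to day 10, 9 were at least 2-fold lower and 1 higher in wild type, 4 and 1 in the knockout, and 8 and 1 with Dkk, with medians of -1.28, -0.76 and -1.0. Of all genes, 7.98%, 8.01% and 6.81% were lower and 16.9%, 21.1% and 17.6% were higher. Those lower in all 3 conditions, named after their values were seen, were the transcription factors Etv4 and Etv5 and the feedback inhibitors Dusp6 and Il17rd. Etv5 went from 38.6, 27.8 and 35.3 RPKM to 7.34, 6.17 and 5.94 RPKM, and Dusp6 from 36.3, 43.4 and 31.9 RPKM to 10.3, 13.1 and 10.1 RPKM. The gene that was higher in each was Dusp4, another dual-specificity phosphatase, from 27.4, 35.3 and 18.0 RPKM to 60.4, 74.5 and 39.4 RPKM. Il17rd was also lower in the knockout than in wild type on day 6, at 11.1 against 31.2 RPKM, and stood at 27.8 RPKM with Dkk.

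In FBS, 1 of the 16 was at least 2-fold higher with overexpression on each day and none was lower, beside 5.19% of all genes in either direction on day 4 and 18.1% on day 7. The gene was Spry4 both times. Spry4, a feedback inhibitor, was at 11.8 and 35.1 RPKM in control and overexpressing cells on day 4, then 6.99 and 16.6 RPKM on day 7 (limma 1.36, SE 0.22, adjusted p = 0.0799). The median difference of the 16 on day 4 was 0.14, beside -0.07 over all genes. On that day Etv5 stood at 86.0 and 92.2 RPKM and Il17rd at 21.4 and 11.3 RPKM, both named after their values were seen. Fgf8 stood at 55.3 and 2.95 RPKM, and its link to these genes was not tested. Over time in FBS, 1 of the 16 was at least 2-fold higher and 1 lower in each group. Of all genes, 11.5% were higher and 8.71% lower in control cells, and 3.49% and 1.2% in overexpressing cells. The higher one was Flrt3, a membrane protein that binds FGF receptors, both times. Flrt3 went from 0.95 to 12.6 RPKM in control cells and from 1.05 to 6.39 RPKM in overexpressing cells.

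**Figure D4:**
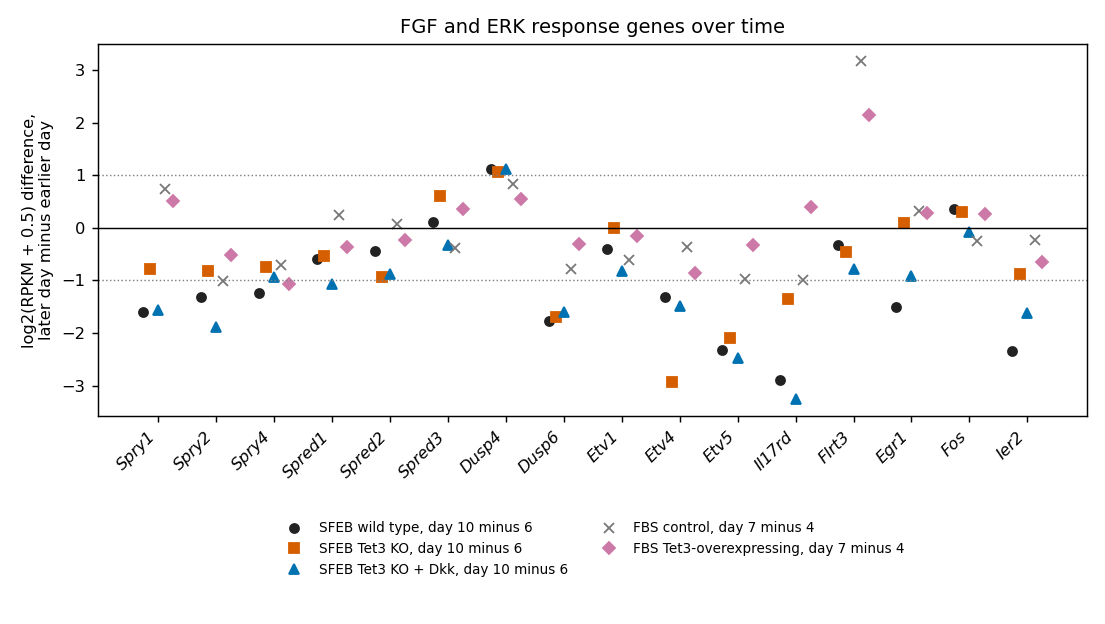
Difference between the later and the earlier day (log2(RPKM + 0.5) units, vertical axis) for the 16 FGF and ERK response genes compared, with 1 point per condition and dotted lines at 2-fold. Etv4, Etv5, Dusp6 and Il17rd lie below the lower line in all 3 SFEB conditions, Dusp4 lies above the upper line in all 3, and Flrt3 lies above it in both FBS groups.

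Genes with the pattern closest to each member over the 10 libraries were found by the root-mean-square difference of log2(RPKM + 0.5) profiles, each centred on its own mean, among genes that reached 5 RPKM. The nearest to Fgf4 were Rbmxl2 (0.25), Gpa33 (0.29) and Tcl1 (0.30), and those nearest to Fgf5 were Vrtn (0.35), Dnmt3b (0.54) and F2rl1 (0.60). Fgf8 had no near neighbour: its closest genes, Il17rd (0.86), Sp5 (0.89) and Tcf7 (0.91), lay farther off than those of any other member. Il17rd is itself an FGF response gene. Fgf3 lay nearest to Mum1l1 (0.46), Dkk1 (0.48) and Cobll1 (0.50), and Fgf10 to Dgkk (0.40), Lgmn (0.48) and Srgn (0.49). For Fgf13 the nearest were Ttc39c (0.17), Tspan13 (0.17) and Ptbp2 (0.20), the smallest distances of all. Fgf15 was closest to Rasl11a (0.37), Cenpj (0.40) and Cbx2 (0.42), Fgf17 to Plcg2 (0.26), Slc35f2 (0.32) and Phf15 (0.36), and Fgf18 to Eml1 (0.32), Epha7 (0.38) and Peli2 (0.38). No 2 members were among each other's 3 nearest genes. The median distance over all candidate genes ran from 0.85 to 2.42. The points share library, culture and depth, so these distances are descriptions.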

How the data were processed

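RNA was measured in 10 libraries of mouse cells, 1 for each condition and day, prepared and sequenced with SOLiD chemistry from total RNA, per the labels' protocols. The authors deposited 1 table of RPKM values with 2 decimals. The submitters' processing notes name HTSeq and the build mm9, while nothing on the aligner, annotation or strand setting is given in the sources used here. Without strand, Fgf15, Fgf17 and Fgf13 cannot be separated from noncoding RefSeq genes that overlap them. RPKM values are not counts, so no count model was run. Sequencing depth was estimated from low values that step by whole reads, using GENCODE vM21 transcript lengths, and at the chosen totals a distance of at most 0.15 read from a whole number was found for 67.3% to 77.9% of them.

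Values were compared as log2(RPKM + 0.5) where a gene reached 1 RPKM in any library of the culture. Pairs of single libraries are described by a 2-fold threshold with no test. An additive model (culture, day within culture, condition within culture) over 10 libraries, with 3 residual degrees of freedom, was fitted with limma 3.58.1 on 13757 genes, and p-values were adjusted by Benjamini-Hochberg with a threshold of 0.05. Its tests are of the condition effect common to both days, with the spread taken from departures from additivity between days, not from biological replicates. On simulated data for the comparison of knockout with wild type, 199 of 200 genes changed by 3 on the log2 scale among 13757 were recovered, with 13 false calls. Recovery of smaller changes was not tested. The additive estimate of largest size for any member was 1.39, for Fgf4 with overexpression.

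The members, gene lists and tests were chosen with earlier results of these data known, so counts over them are descriptions. All 9 members are named. Of the 4 pathway lists, genes past 2-fold in the same direction on both days of a comparison, and otherwise at most the 3 largest changes, are named, and others are said to be chosen after seeing their values. Of 117 list genes, 2 were matched through older symbols. Promoter sequences are from RefSeq. Alternatives were pseudocounts of 0.1 and 1, no filter, a filter of 5 RPKM, TPM scaling (each library rescaled to 1 common sum), 1 culture alone, and leaving out each library.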

Additional observations from a re-analysis of the deposited data

Results flagged for a closer look

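Fgf8 and Fgf5 lay on opposite sides of the control on the 2 days of Tet3 overexpression, each past 2-fold. The Fgf8 difference was -4.02 on day 4 and 1.62 on day 7, and the Fgf5 difference was -1.20 on day 4 and 2.72 on day 7, both on the log2(RPKM + 0.5) scale. An interaction test with limma, whose spread comes from the SFEB libraries alone, gave adjusted p = 0.128 for Fgf8 and 0.345 for Fgf5.

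The same 4 libraries arranged by time also gave opposite directions. Fgf8 differed by -2.88 from day 4 to day 7 in control cells and by 2.75 in overexpressing cells, and Fgf5 by -2.18 and 1.74. For each gene this is the same interaction as above.

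Fgf5 also lay on opposite sides of wild type in the knockout with Dkk, at 1.26 on day 6 and -1.76 on day 10. This difference between days was not tested, and the levels behind it were at most 4.72 RPKM.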

How the results depend on the processing

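Of 89 recomputed counts of members outside the leave-one-out runs, 81 stayed within 1.5 times and 8 did not. Knockout against wild type on day 10 went from 2 members to 1 with a pseudocount of 1, to 1 with TPM scaling and to 0 with a filter of 5 RPKM, which leaves fewer members to compare. Dkk against knockout on day 10 went from 1 to 2 with a pseudocount of 0.1, and knockout with Dkk against wild type on day 10 from 1 to 2 with that pseudocount and to 0 with the 5 RPKM filter. On day 6 the latter comparison went from 1 to 0 with that filter, and the count for Dkk over time went from 4 to 2. In the additive limma model, leaving out 1 library gave 0 to 4 members called for overexpression and 0 for the other contrasts; without control or overexpressing day 4 it gave 3 and 4, beside 5.61% and 6.72% of all genes, with the lone FBS sample of that day assumed to vary like the other libraries. Additive estimates of members, none of which passed the threshold with all libraries, could depend on 1 library: 28 of 360 changed sign when 1 was left out, and 3 of 208 under the other settings. For overexpression the leave-one-out range was -4.02 to 1.62 for Fgf8, which passed at the upper end without overexpressing day 4, -1.20 to 2.72 for Fgf5, -0.84 to 0.60 for Fgf10, -0.78 to 0.77 for Fgf13 and -0.092 to 1.93 for Fgf17, which passed at the upper end without either day 4 library, and Fgf13 was 0.0080 with a pseudocount of 0.1. For knockout against wild type it was -0.27 to 0.24 for Fgf3 (0.011 with a pseudocount of 1) and -1.78 to 0.85 for Fgf5. For Dkk against knockout it was -0.14 to 0.37 for Fgf3, -0.076 to 0.36 for Fgf4, -0.73 to 1.16 for Fgf5, -0.051 to 0.62 for Fgf8 and -0.019 to 0.44 for Fgf13. For knockout with Dkk against wild type it was -0.11 to 0.32 for Fgf3, -1.56 to 1.07 for Fgf5, -0.47 to 0.21 for Fgf8, -0.13 to 0.15 for Fgf10 (-0.046 with TPM scaling), -0.46 to 0.0013 for Fgf13, -0.20 to 0.77 for Fgf15 and -0.0018 to 0.33 for Fgf18. Counts over all genes depended on the settings. Knockout against wild type called 29 genes, and 12, 14, 2 and 44 with pseudocounts of 0.1 and 1, no filter and TPM scaling, 253 in SFEB alone and 0 to 78 without 1 library. Dkk against knockout called 18, and 6, 1 and 86 with a pseudocount of 0.1, no filter and SFEB alone, and 0 to 18 without 1 library. Overexpression called 13, and 47 with no filter, 0 in FBS alone, and 0 to 919 without 1 library. Knockout with Dkk against wild type called 1, and 0 whenever an SFEB library was left out. The causes were not tested. No paired analysis was possible because the labels give no replicate numbers to pair on, beyond the comparison of conditions within each day that the additive model makes. Depth limits members with few estimated reads, and the width of counting intervals under 1 RPKM varied with gene and library. Fgf4 at 0.18 RPKM in the SFEB knockout on day 10 had an interval of 0.033 to 0.47 RPKM. Fgf10 at 0.97 RPKM in FBS control day 4 had a narrower interval of 0.83 to 1.12 RPKM.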
